A study of Arabidopsis thaliana with 24 samples.

Results

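KEA1 (AT1G01790), KEA2 (AT4G00630) and KEA3 (AT4G04850) encode the chloroplast potassium antiporters of Arabidopsis thaliana. The 3 genes were taken by locus from the 4752 genes with a row in at least 1 of the authors' 4 deposited tables, and they were chosen with those rows known. KEA1 had a row in all 4 tables, 2 of gene expression and 2 of splicing. KEA3 had a row in 3 of them, all but the expression comparison of MLB with EMS27. KEA2 had no row in any of them.

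RNA was sequenced from whole seedlings of 4 lines, in 24 libraries of 8 groups with 3 libraries each. Per the labels, seeds were chilled for 2 days and lit for 6 h with white light of 50 µmol per m2 and s. Growth then continued for 60 h, either dark or under 19 µmol per m2 and s of red light, and 4 °C is stated beside the white light, the dark and the red light. All lines are labelled as Col-0 background. Col-0 is the wild type and rrc1-689 is the rrc1 mutant compared with it. MLB lacks its own red-light receptor phytochrome B and expresses it from the ML1 promoter, which is active in the epidermis. EMS27 is the rrc1 mutant compared with MLB. RRC1 is a splicing-related protein, and its gene has no row in the tables, so its own level was not analysed here. Red-grown MLB and EMS27 were compared for expression and splicing, red-grown Col-0 and rrc1-689 for splicing, and red-grown with dark-grown MLB for expression. Whether replicates were grown as separate cultures is not stated, so the p-values computed here rest on variation among libraries that may be technical only. In whole seedlings, fewer cells of a type and less RNA per cell cannot be told apart.

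KEA antiporters exchange potassium ions for protons across chloroplast membranes. KEA1 and KEA2 are close relatives in the inner envelope, where they act in part redundantly in ion balance and chloroplast development. KEA3 sits in the thylakoid membrane and moves protons out of the lumen against potassium, which speeds the relaxation of photoprotective quenching when light falls.

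The splicing tables list 1 event in KEA1 and 1 in KEA3, and each is an intron inside the coding sequence. In KEA1 it is intron 4 of 20, of 189 bases, at chr1:286808-286996 on the forward strand of TAIR10.1. In KEA3 it is intron 4 of 16, of 229 bases, at chr4:2454036-2454264 on the forward strand. Both sequences are shown because the reads described further on were counted at their ends. They are reference sequences from RefSeq's TAIR10.1 assembly, written 5′ to 3′, in which capitals mark the first 2 bases (the donor), the first stop codon in frame with the upstream exon, and the last 2 bases (the acceptor).
KEA1: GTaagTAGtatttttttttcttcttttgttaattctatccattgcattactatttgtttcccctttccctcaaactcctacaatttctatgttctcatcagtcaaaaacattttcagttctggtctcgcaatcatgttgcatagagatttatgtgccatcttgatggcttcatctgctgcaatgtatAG
KEA3: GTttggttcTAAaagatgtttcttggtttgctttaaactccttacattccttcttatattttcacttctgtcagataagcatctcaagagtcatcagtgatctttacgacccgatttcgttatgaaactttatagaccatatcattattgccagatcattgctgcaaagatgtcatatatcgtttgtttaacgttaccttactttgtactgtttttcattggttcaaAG

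Both introns open with GT and close with AG. A transcript that kept the KEA1 intron would run in frame into a TAG that begins at intron base 6, with 51.2% of the 3582 coding bases upstream. In KEA3 the stop is a TAA at intron base 10, with 29.8% of the 1914 coding bases upstream. Both stops lie beside the donor end, where the mutants had 0 boundary reads at KEA1 and at most 1 per line at KEA3. Whether transcripts of the mutants contain these stops was not tested. The KEA1 and KEA3 introns are longer than 76.3% and 80.9% of the 133345 annotated introns, whose median length is 101 bases. The KEA3 intron is the longest of its gene, whereas 3 introns of KEA1 are longer than the listed one. Each intron is present in both annotated transcripts of its gene.

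**Figure D1:**
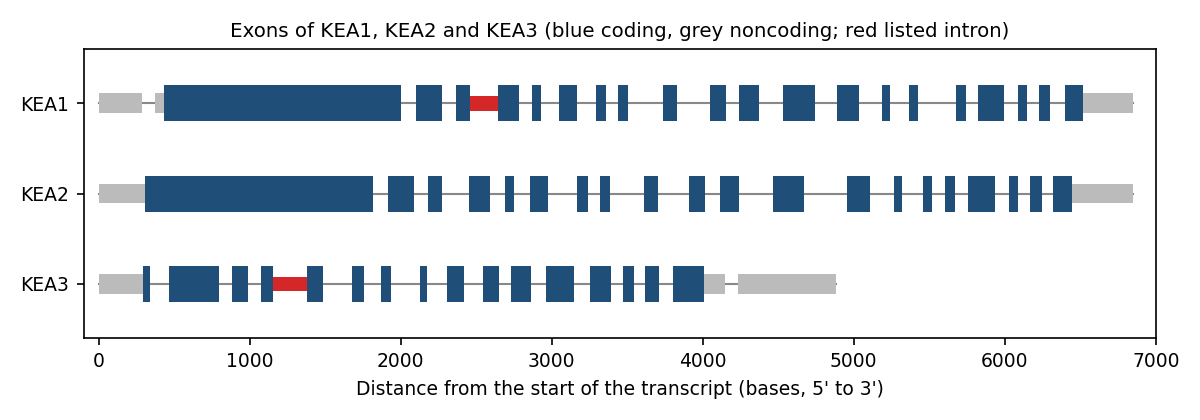
Exons of the 3 antiporter genes against the distance from the transcript start in bases, drawn 5′ to 3′, with coding parts in blue, noncoding parts in grey and the listed introns of KEA1 and KEA3 in red. The KEA1 and KEA2 models have 20 coding segments each, while KEA3 is shorter and its marked intron lies nearer the start of the coding sequence than that of KEA1.

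KEA1 and KEA2 are alike along their length, and the KEA1 reads have to be read with that in mind. Their coding sequences are 78.4% identical over the alignment, and 18 of their 20 coding segments have equal length. KEA1 and KEA3, in contrast, are 37.0% identical in coding sequence. The 60 bases of spliced KEA1 transcript around the junction, 30 from each exon, are shown because a read over this junction is what the spliced count counts. Capitals mark the bases at which KEA2 differs.
KEA1 spliced junction: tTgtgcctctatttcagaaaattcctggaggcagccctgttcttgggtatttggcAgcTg
The junctions of the 2 genes differ at 3 of these 60 bases, and the longest run they share is 53 bases. A read that lies within this run cannot be assigned to 1 gene by its sequence. The read length and the handling of such reads are not given in the sources used here, so the spliced counts of KEA1 may include reads of KEA2, and how many was not tested.

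The splicing comparisons ask which introns and exons were used differently when RRC1 was mutated. The KEA1 intron was a small part of the reads in both controls and a large part in both mutants, and the KEA3 intron moved the same way at a lower level. The level is the share of reads over the 2 exon-intron boundaries among these plus the spliced reads, the latter counted doubly since retention is read at 2 boundaries. The listing of both introns rests on these contrasts, so the levels are given as a description with no test. Listed events made up 0.308% of the bins tested for MLB and EMS27 and 0.286% of those for Col-0 and rrc1-689, and events listed as higher in the mutant made up 0.199% and 0.206%.

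The level of the KEA1 intron was 4.21%, 2.99% and 6.67% in MLB replicates 1 to 3, and 26.7%, 50.0% and 42.9% in EMS27. It was 4.95%, 3% and 2.91% in Col-0, and 33.3%, 14.8% and 21.1% in rrc1-689. Each mutant library stood above each control library of its pair. The intron was listed on these contrasts, and how many other listed events separate so was not counted. The group means were 4.62% ± 1.87 in MLB and 39.8% ± 12 in EMS27 (SD, n = 3 each), an 8.62-fold difference. In Col-0 and rrc1-689 they were 3.62% ± 1.15 and 23.1% ± 9.42 (SD, n = 3 each), a 6.37-fold difference. The authors' deposited table gives fractions of 0.0440 and 0.367 for MLB and EMS27 with an FDR of 6.04e-10. For Col-0 and rrc1-689 the authors' deposited table gives 0.0362 and 0.200 with an FDR of 1.55e-07.

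The level of the KEA3 intron was 0%, 0.508% and 3.08% in MLB replicates 1 to 3, and 7.69%, 8.16% and 15.7% in EMS27. It was 0%, 1.27% and 1.20% in Col-0, and 12.9%, 12.8% and 9.38% in rrc1-689. Here too no mutant library overlapped with its controls. Both introns were listed on these contrasts, and how many other listed events separate in this way was not counted. The means were 1.19% ± 1.65 in MLB and 10.5% ± 4.47 in EMS27 (SD, n = 3 each), an 8.79-fold difference. They were 0.824% ± 0.714 in Col-0 and 11.7% ± 2.00 in rrc1-689 (SD, n = 3 each), a 14.2-fold difference. Both ratios rest on control levels near 0, with 5 boundary reads in MLB and 2 in Col-0, and are imprecise. The authors' deposited table gives an FDR of 4.69e-11 for MLB and EMS27 and the authors' deposited table of the other pair gives 3.15e-19.

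**Figure D2:**
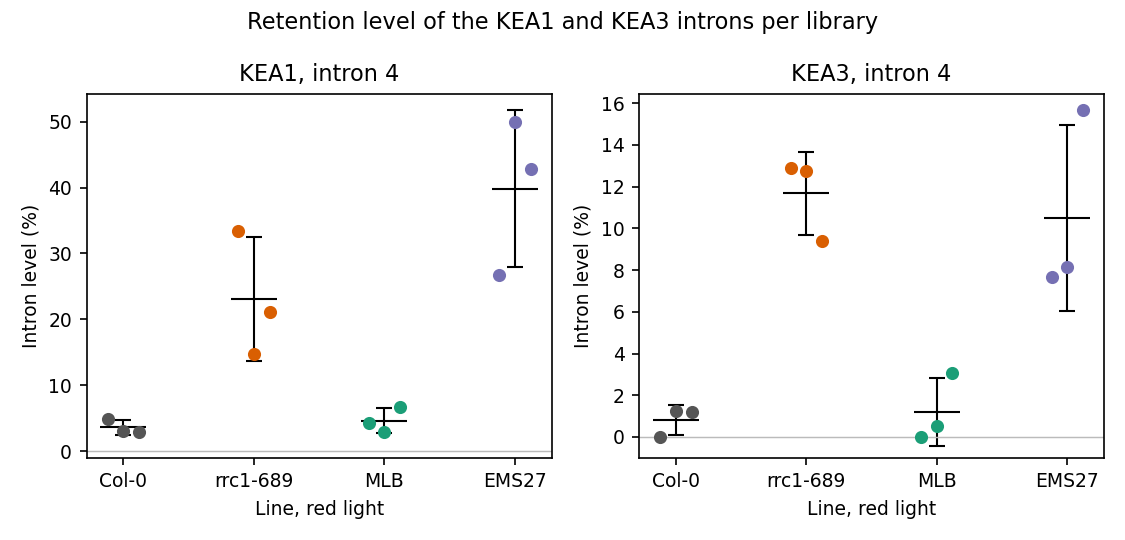
Level of the KEA1 intron (left) and the KEA3 intron (right) in percent for each red-light library, by line. Points are libraries, wide bars are means and whiskers are the SD over 3 libraries. The KEA1 level lies between 2.91% and 6.67% in the controls and between 14.8% and 50.0% in the mutants, and the KEA3 level reaches 3.08% in the controls and 15.7% in the mutants.

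The reads behind these levels changed in different ways in the 2 genes. At KEA1 the spliced reads fell and the boundary reads stayed about level. The spliced junction had 91, 81 and 56 reads in MLB and 11, 4 and 4 in EMS27, and it had 96, 97 and 100 in Col-0 and 6, 23 and 15 in rrc1-689. The summed spliced reads were thus 12-fold lower in EMS27 (19 against 228) and 6.66-fold lower in rrc1-689 (44 against 293). Libraries did not overlap in either pair, and how many other listed introns separate in this way was not counted. The acceptor boundary of the KEA1 intron had 8, 3 and 7 reads in MLB and 8, 8 and 6 in EMS27. In Col-0 it had 9, 6 and 5, and in rrc1-689 it had 6, 8 and 8. The acceptor-boundary reads summed to 18 and 22 in the first pair and to 20 and 22 in the second, and the libraries overlapped in both.

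At KEA3 the boundary reads were higher in the mutants. The acceptor boundary had 0, 0 and 2 reads in MLB and 8, 7 and 13 in EMS27, and it had 0, 1 and 1 in Col-0 and 16, 12 and 12 in rrc1-689. The libraries did not overlap, and the sums were 2 against 28 and 2 against 40. The spliced junction of KEA3 had 77, 98 and 63 reads in MLB and 48, 45 and 35 in EMS27, summing to 1.86-fold fewer in the mutant without overlap. In Col-0 it had 47, 39 and 41 reads and in rrc1-689 it had 54, 41 and 58, and these overlapped. These are raw reads, and the share of listed introns whose reads separate in this way was not counted. Summed over all listed events, EMS27 libraries held 1.04 times the reads of MLB and rrc1-689 libraries 0.925 times those of Col-0.

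**Figure D3:**
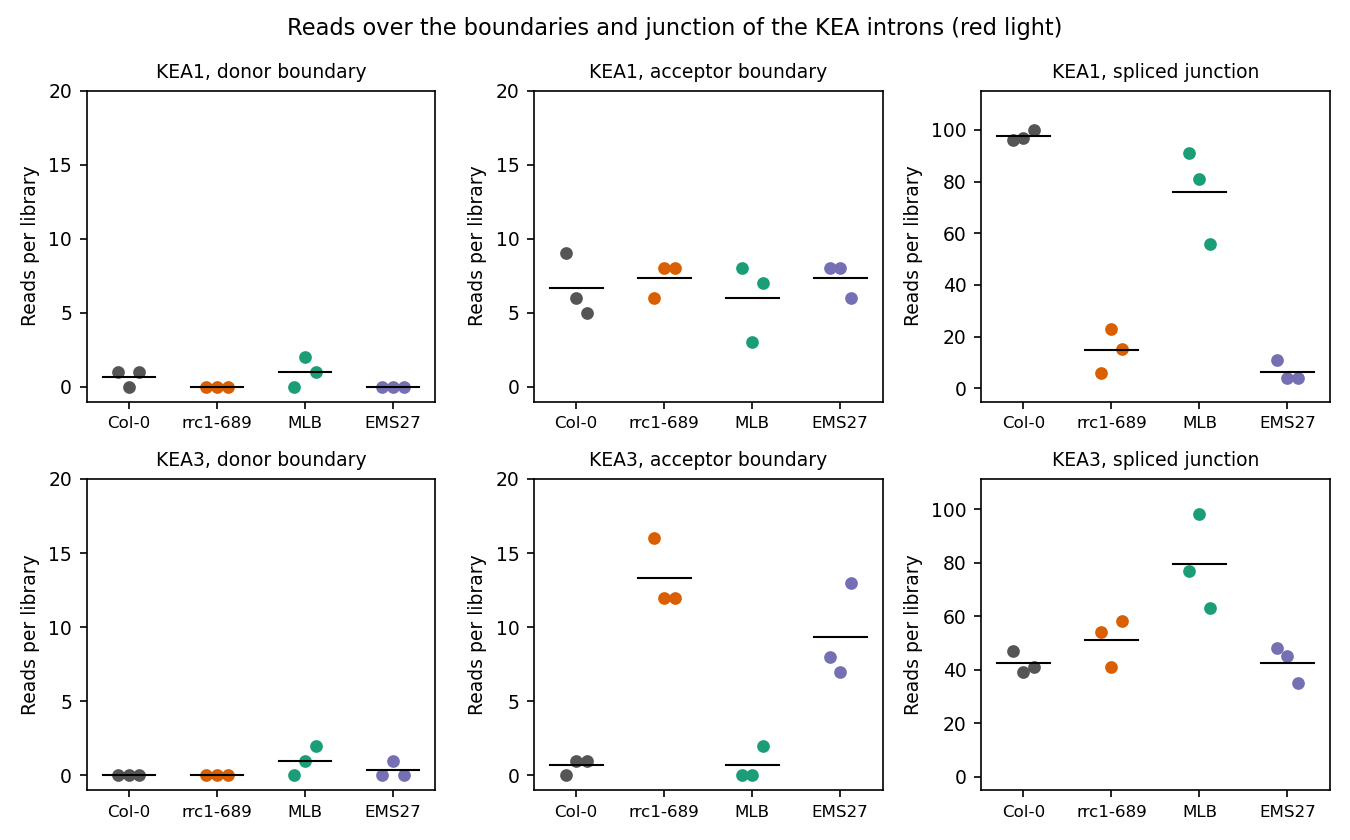
Reads per red-light library over the donor boundary, the acceptor boundary and the spliced junction of the KEA1 intron (top) and the KEA3 intron (bottom), by line, with a bar at each group's mean. KEA1 shows low spliced reads in both mutants beside acceptor reads of 3 to 9 in all 4 lines, and KEA3 shows acceptor reads of 7 to 16 in the mutants against at most 2 in the controls.

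Most boundary reads lay at the acceptor end, except at KEA3 in MLB, where 3 of the 5 boundary reads lay at the donor end. The files name the boundaries as exon to intron and intron to exon, and these were taken as the donor and the acceptor end because both genes lie on the forward strand. This reading of the names was not checked otherwise. At the donor boundary KEA1 had 0, 2 and 1 reads in MLB, 1, 0 and 1 in Col-0, and none in EMS27 or rrc1-689. KEA3 had 0, 1 and 2 donor reads in MLB, 0, 1 and 0 in EMS27, and none in Col-0 or rrc1-689. Reads across the whole intron would be counted at both ends, so in the mutants the deposited level averages an end with reads and an end with at most 1 read per library. At the acceptor end alone, summed over libraries, the KEA1 level was 53.7% in EMS27 (Wilson 95% interval 38.7 to 67.9) and 7.32% in MLB (4.68 to 11.3). It was 33.3% in rrc1-689 (23.2 to 45.3) and 6.39% in Col-0 (4.17 to 9.66). The KEA3 level at that end was 17.9% in EMS27 (12.7 to 24.7) and 0.833% in MLB (0.229 to 2.99), and 20.7% in rrc1-689 (15.6 to 27) and 1.55% in Col-0 (0.426 to 5.48). At the donor end alone the KEA1 level was 1.30% in MLB and 0.678% in Col-0. It was 0 in both mutants, where a count of 0 beside so few spliced reads allows up to 15.8% in EMS27 and 6.82% in rrc1-689. The KEA3 level at the donor end was 1.24% in MLB and 0.775% in EMS27. It was 0 in Col-0 and rrc1-689, where the counts allow up to 2.36% and 1.96%. Intervals and limits cover counting error only.

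Such one-sided reads occur at other listed introns too. Of the boundary reads in each pair, 93.0% and 95.5% lay at 1 end of the KEA1 intron and 88.2% and 100% at 1 end of the KEA3 intron. The median over all listed introns was 83.3% for the 217 of MLB and EMS27 and 81.8% for the 215 of Col-0 and rrc1-689. In each pair 50 introns had at least 95% of their boundary reads at 1 end, which is 23% and 23.3%. Either end counted here and no minimum number of boundary reads was set, so introns with few reads enter both the median and this share. The fall in spliced reads at KEA1 lay near the end of the range, with a larger fall at 2 of the 217 introns and at 5 of the 215. The median intron had a log2 ratio of spliced reads of −0.28 and −0.34, and of boundary reads of 1.28 and 1.27, mutant over control. KEA1 had log2 ratios of −3.55 and −2.72 for spliced reads and 0.07 and 0 for boundary reads. KEA3 had −0.89 and 0.27 for spliced reads and 2.42 and 4.02 for boundary reads. These ratios have 0.5 added to both sums, and the introns were listed on the same contrasts, so they describe the list.

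**Figure D4:**
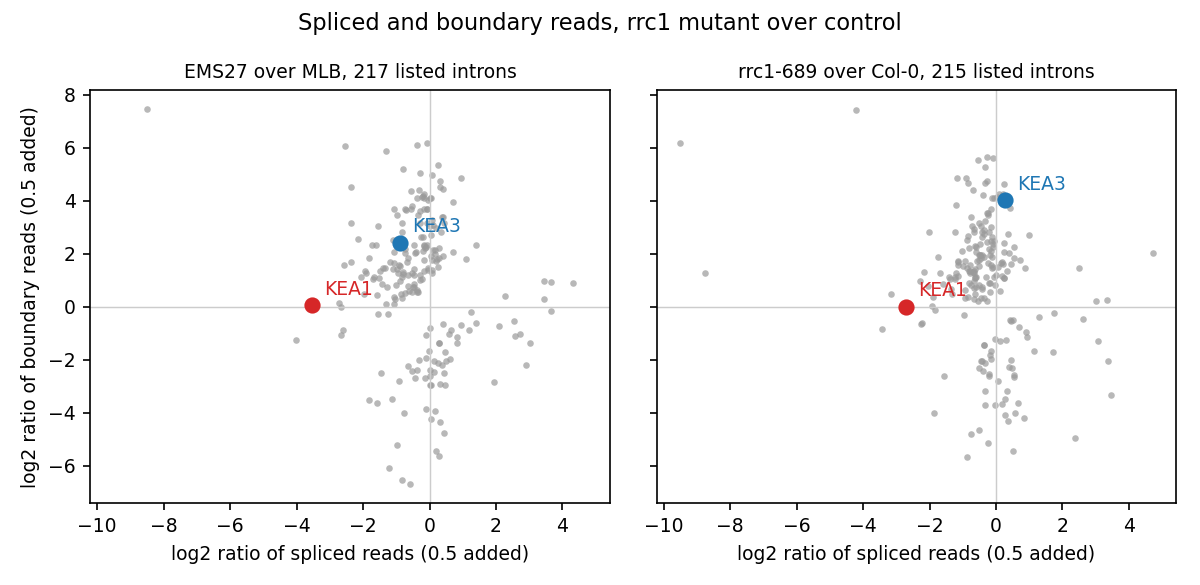
Log2 ratio of boundary reads against log2 ratio of spliced reads, mutant over control with 0.5 added, for each listed intron of the MLB and EMS27 pair (left) and the Col-0 and rrc1-689 pair (right). KEA1 (red) lies far to the left with no change in boundary reads in the sums of the second pair, and KEA3 (blue) lies high, among introns with more boundary reads in the mutant.

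Whether the response differed between backgrounds was tested over the 136 events listed for both pairs, a contrast on which neither table was listed. The set still depends on the mutant effects, since an event entered only if its response passed the authors' listing in both pairs of these libraries. Events that responded in a single background were thereby largely left out, and the results hold for this set alone. Neither antiporter intron passed. The limma fit used the logit, the natural log of the odds, of the level in 12 libraries. Each background has its own mutant line, so background and mutant line cannot be told apart in this contrast or between the mutants. For KEA1 the limma estimate of the response was larger in the MLB and EMS27 pair by 0.56 logit units (SE 0.50, 95% interval −0.54 to 1.66, adjusted p = 0.892). For KEA3 the difference was 0.10 (SE 0.78, −1.64 to 1.83, adjusted p = 0.978). Of the 136 events 3 passed, which is 2.21%, but 0 passed with the replicate block, with either boundary alone and in 8 of the 12 fits without 1 library. The intervals are wide and leave room for sizable differences in either direction.

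The control lines were compared with each other in the same limma fit. MLB and Col-0 differed by 0.23 logit units at KEA1 (SE 0.35, −0.54 to 1.01, adjusted p = 0.895) and by −0.25 at KEA3 (SE 0.55, −1.47 to 0.98, adjusted p = 0.908). Between the mutants, EMS27 was above rrc1-689 by 0.80 at KEA1 (SE 0.35, 0.02 to 1.57), with an unadjusted p of 0.0454 and an adjusted p of 0.428. At KEA3 it was lower by a logit difference of −0.15 (SE 0.55, −1.37 to 1.08, adjusted p = 0.972). No event passed limma's adjusted threshold in either contrast (0%), and 15 and 14 of the 136 events had an unadjusted p under 0.05. These counts of 0 depend on the setting, with 10 events passing between the mutants on an arcsine scale and 5 passing between MLB and Col-0 without MLB replicate 1.

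Expression was deposited as the authors' comparisons, without values per library. KEA1 was higher in red-grown MLB than in red-grown EMS27 and higher in red light than in darkness, and KEA3 was higher in red light. In the authors' deposited table KEA1 was 5.01-fold higher in MLB than in EMS27 (log2 2.33, FDR 4.85e-166), where 5.99% of the genes tested were listed and 4.14% were listed as higher in MLB. It had the second smallest p of the 1146 genes in the authors' deposited table and was the 53rd by size among those higher in MLB. The same contrast gave the 12-fold fall in spliced reads at the KEA1 intron, with acceptor-boundary reads 1.22 times those of MLB. KEA3 has no row in the authors' deposited table of this contrast. A gene without a row either missed an absolute log2 fold change of 1 or an FDR of 0.01, or was not tested.

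The study's design sets red-grown against dark-grown MLB to look at epidermal phytochrome B. MLB keeps its other phytochromes and no line without phytochrome B was analysed here, so the part of the receptor in these changes was not tested. In the authors' deposited table KEA3 was 11.0-fold higher in red light (log2 3.46, FDR 1.64e-140) and KEA1 was 4.98-fold higher (log2 2.32, FDR 2.32e-83). There 19.5% of the genes tested were listed and 12.8% were listed as higher in red light, with 6.76% higher in darkness. All 3 values of the antiporters exceed an absolute log2 fold change of 1.5, which 2.19% of the genes tested did between MLB and EMS27 and 11.2% between light and darkness. KEA3 ranked 285 and KEA1 ranked 751 by size among the rises. The 2 expression comparisons share the red-grown MLB libraries. Junction reads of dark-grown seedlings were not analysed here, and neither was gene expression of Col-0 and rrc1-689.

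Other genes of chloroplast transport and proton handling were counted in the red over dark comparison. Of 28 chloroplast ion and metabolite transporters, 15 (53.6%) were listed, 12 as higher and 3 as lower in red light, beside 19.5% of all genes tested listed, 12.8% as higher and 6.76% as lower. In the authors' deposited table these were led by PPT2, a plastid phosphoenolpyruvate/phosphate translocator, with a log2 fold change of 9.19. The phosphate transporters PHT2;1 and PHT4;1 had log2 fold changes of 2.79 and 2.16, the triose phosphate translocator TPT 2.35, and the dicarboxylate transporters DIT1 and DIT2 1.84 and 1.52 in the authors' deposited table. The authors' deposited table gives smaller rises for the copper pump PAA2 (1.61), the pyruvate carrier BASS2 (1.35), AT1G64150 (1.29), the iron permease PIC1 (1.28), the magnesium transporter MGT10 (1.16) and the metal pump HMA1 (1.14). The 3 lower genes were the ATP/ADP carriers NTT1 (−1.01) and NTT2 (−1.15) and the glucose 6-phosphate translocator GPT2 (−4.40) in the authors' deposited table. The median over the 15 was 1.35, against 1.28 over all listed genes.

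Of 12 genes of the proton motive force and of quenching, 10 (83.3%) were listed and all of these were higher in red light, beside 12.8% of all genes tested, with a median log2 fold change of 2.63. Those for electron flow around photosystem I were PGRL1A (3.33) and PGR5 (2.00) in the authors' deposited table. The chloroplast ATP synthase subunits ATPD and ATPC1 had 3.20 and 2.65 and the Rieske protein PETC of the cytochrome complex 2.61 in the authors' deposited table. The state transition kinase STN7 had 3.19, and PSBS, which triggers quenching, had 2.57 in the authors' deposited table. The xanthophyll enzymes ZEP and NPQ1 had 3.11 and 1.27, and AT1G54520 had 1.25 in the authors' deposited table. PGRL1B and TAP38 had no row.

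Potassium transport elsewhere in the cell had 1 row in each expression comparison, or 9.09% of its genes, beside 19.5% of all genes tested for red over dark and 5.99% for the other comparison. Of 11 such genes, the guard cell channel KAT2 alone was listed as higher in red light (1.40), and the root channel SKOR alone was listed as higher in MLB than in EMS27 (1.13), both in the authors' deposited tables. The other KEA antiporters, KEA4, KEA5 and KEA6, had no row in either comparison. Between MLB and EMS27, the authors' deposited table listed PPT2 (3.33), ZEP (1.05) and PGR5 (1.00) from the 2 chloroplast lists, each higher in MLB. No gene of these lists other than KEA1 and KEA3 had a listed splicing event, and with 0.308% and 0.286% of all bins listed this count is no result about the lists.

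**Figure D5:**
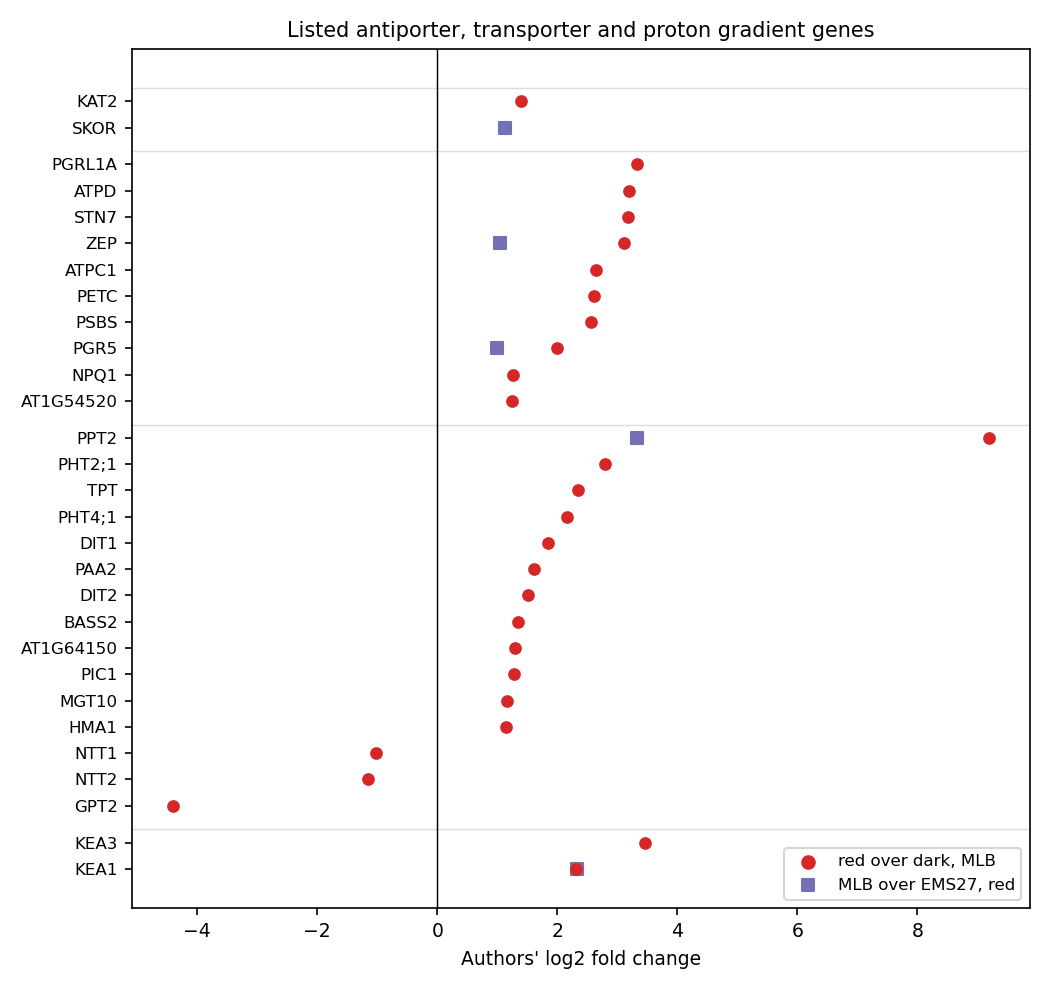
Authors' log2 fold changes of the listed antiporter, transporter, proton gradient and potassium genes, with red over dark in MLB as red circles and MLB over EMS27 in red light as squares, grouped from bottom to top as the antiporters, chloroplast transporters, proton motive force and quenching, and other potassium transport. KEA1 has 2.32 and 2.33 in the 2 comparisons, and 3 of the genes drawn lie below 0.

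The listed events whose levels were nearest to the antiporter introns over 6 libraries belonged to genes of other functions. In MLB and EMS27 the closest to KEA1 were events of VLN3, an actin-bundling villin, the floral repressor MAF1 and AT3G06880, with mean absolute differences of 2.89, 4.78 and 4.90 percentage points. The closest to KEA3 were TLP11 (1.06), the chromatin remodeller PKL (1.97) and AT5G44090 (1.99). In Col-0 and rrc1-689 the closest to KEA1 were AT4G10080 (2.31), BT1 (3.13) and AT3G50380 (3.14). The closest to KEA3 there were AT1G10657 (0.681), HCF109, a plastid peptide chain release factor (1.11), and PFA-DSP5 (1.13). Each was taken from the 324 or 327 other events of its table, and no gene was among the 3 nearest in both pairs. The events of AT3G06880 and AT1G10657 are labelled as alternative 3′ splice sites. Their level is another measure than that of an intron, since the opposing reads are not counted doubly.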

How the data were processed

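Whole-seedling RNA was sequenced on an Illumina NextSeq instrument. Reads were aligned with TopHat2 2.1.1 to TAIR10, per the submitters' processing notes, and ASpli 1.9 made the comparisons, per the file headers. The authors deposited log2 fold changes with p-values and FDR per gene, listing genes past an absolute log2 fold change of 1 and an FDR of 0.01. For splicing the authors deposited raw read counts per junction and boundary in 12 red-light libraries, with fractions per group from summed reads, listing events past a difference of 0.05 and an FDR of 0.05. No gene level per library was used here.

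Recomputing from the counts gave each deposited fraction within 0.0001 (all 325 and all 328 events). A library held 24482 to 28447 reads over the MLB and EMS27 events, and 34004 to 38559 over the Col-0 and rrc1-689 events, which are not library depths. The median event had 41 to 67 reads per library, which limits precision. The numbers of genes (19143 and 19916) and bins (105441 and 114579) tested were recovered from the relation of p, FDR and rank. Whole ranks within 0.01 were found for 96.9% and 98.0% of listed genes, and within 0.02 for 80.6% and 84.1% of the bins used, so the bin totals are less certain.

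Between-background contrasts used limma 3.58.1 (R 4.3.3) with logit-transformed levels, 0.5 added to both read sums, 4 groups of 3 libraries and Benjamini-Hochberg adjustment over 136 shared events at 0.05. The fit was tested on simulated data for the difference of the mutant effects, with a spread that was set and not estimated from these libraries. It called 41.5% of events shifted by 1 logit unit, 80% of those shifted by 2 and 0.833% of those without a shift. All 4 groups were drawn from a common level per event, without a mutant effect shared by both pairs. These rates therefore need not hold for the antiporter introns, whose levels in the controls were low. Alternatives were other added constants, at least 10 reads in every library, read-number weights, an arcsine scale, each boundary alone, a replicate block, each library left out and an absolute log2 fold change above 1.5. Sequences and introns came from RefSeq TAIR10.1 with Biopython 1.88, and the KEA2 intron is not reported here. Of 4706 genes in that annotation, 4699 had the files' coordinates. Of the 57 genes in the lists, 49 matched by name and 8 are named by RefSeq symbol or locus. All KEA rows, all list genes with a row and, per KEA event, the 3 events nearest in level were named. The antiporters and lists were chosen with earlier results of these data known.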

Additional observations from a re-analysis of the deposited data

How the results depend on the processing

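The antiporter levels depended on which boundary was counted. With the donor boundary alone, the difference in percentage points turned to −1.39 at KEA1 and −0.64 at KEA3 for EMS27 minus MLB. For rrc1-689 minus Col-0 it turned to −0.67 at KEA1 and 0 at KEA3. These donor values rest on at most 3 donor reads per line, and the count of 0 in EMS27 at KEA1 allows a level of up to 15.8%, so they show no reversal. With the acceptor boundary alone the difference was 48.7 and 17.3 for EMS27 minus MLB and 30.5 and 19.3 for rrc1-689 minus Col-0. Summing reads over libraries moved no difference by more than the SD between libraries. Leaving out 1 library gave 30.1 to 41.8 and 14.3 to 23.6 at KEA1, and 6.73 to 10.7 and 10.2 to 12 at KEA3.

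No alternative brought an antiporter intron past the threshold in a contrast between backgrounds, with adjusted p from 0.216 to 1 over 20 alternatives per result. The KEA3 estimates lay near 0 and changed sign. The arcsine scale gave −0.030 for the difference of the mutant effects and 0.0083 for MLB minus Col-0. The donor boundary alone gave 0.29 for MLB minus Col-0 and 0.54 for EMS27 minus rrc1-689. Leaving out 1 library gave −0.44 to 0.75, −0.90 to 0.30 and −0.40 to −0.01 for KEA3 in these 3 contrasts, and 0.32 to 0.84, 0.02 to 0.42 and 0.55 to 1.08 for KEA1. The cause was not tested.

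The 3 events called for the difference of the mutant effects became 0 with the replicate block and with either boundary alone, and 0 to 3 without 1 library, with 0 in 8 of 12 such fits. For MLB minus Col-0 the count of 0 became 1 with 0.1 added, 3 with weights and 0 to 5 without 1 library. For EMS27 minus rrc1-689 it became 2 with 1 added, 1 with at least 10 reads, 2 with weights, 10 on the arcsine scale, 2 with the first boundary alone and 0 to 3 without 1 library. Deviations of libraries of the same number had correlations of −0.087 to 0.111, and those of different numbers had −0.164 to 0.111. These values show no pairing by number, but whether growth or processing was shared by number was not tested. The block moved no antiporter call. Above an absolute log2 fold change of 1.5, 8 of the 15 transporters listed for red over dark remained and 0 of the other potassium genes. For MLB over EMS27, 0 of the proton motive force genes and 0 of the other potassium genes passed it.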
